A study of Mus musculus with 6 samples.

Results

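The sperm tail and axoneme genes are a list of 38 mouse genes for the outer dense fibres, the fibrous sheath, the tektin filaments, the microtubule core of the flagellum and its assembly. A gene was taken where the platform annotation gave a probe set with its current or older symbol as the only gene. Affymetrix arrays read a transcript through several short probes, summarised as a probe set, and many genes have more than 1. Of the 38 listed genes 35 had such a probe set. The older symbol Spag6 also stands for Spag6l, which made 36 genes with 67 probe sets, out of 18193 genes on the array. Tuba3a and Tcte3 lay only on probe sets that name several genes, and they and Fsip2 were not analysed here.

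Whole testes came from 3 Alkbh1 knockout mice (KO, Alkbh1-/-) and 3 wild-type mice (WT), all 12 weeks old. Both groups are labelled with a C57/BL6 background in the source field, while the genotype field spells the strain C53/BL6. The labels do not say which part of Alkbh1 was deleted. Alkbh1 encodes a dioxygenase of the AlkB family, and the comparison asks what its loss does to the testis transcriptome. Each mouse gave 1 Affymetrix array with normalized log2 expression values. RNA integrity was high in all samples, per the labels.

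The sperm flagellum is built around an axoneme, a ring of doublet microtubules with dynein arms and radial spokes around a central pair. Outer dense fibres and a sheath of mitochondria surround it in the midpiece. The fibrous sheath, assembled from A-kinase anchoring proteins, encloses it in the principal piece. The annulus, a septin ring, marks the border between these segments. Sheath and outer dense fibre proteins are made in spermatids after meiosis, while many axoneme genes also serve motile cilia in other tissues.

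Alkbh1 was low in the KO arrays. Its probe set 1434660_at read 5.76, 5.30 and 5.20 log2 in KO replicates 1, 2 and 3, against 8.43, 8.65 and 8.72 in WT replicates 1, 2 and 3 (difference -3.18 ± 0.15 SE, limma adjusted p = 0.000582). Its other probe set, 1438681_at, read 6.03, 5.78 and 6.10 in KO, against 6.97, 6.82 and 7.16 in WT. It was lower by less and was not called (difference -1.02 ± 0.12 SE, limma adjusted p = 0.0697). Whether the probes of either fall inside the deletion is not known, so the values are only a limited check of the labels. Over the 27022 probe sets that were tested, which are the upper 60% by mean log2, 11 were called at a limma adjusted p under 0.05, or 0.0407%. WT replicate 1 stood apart at high signal. The 99th percentile of its values was 12.97 log2, against 13.10 to 13.11 on the other 5 arrays.

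No sperm tail or axoneme gene was called higher or lower in KO. Of the 61 member probe sets tested 0 passed the adjusted threshold, and the lowest adjusted p was 0.863 (limma with Benjamini-Hochberg adjustment over all 27022 probe sets). At an unadjusted p under 0.05 there were 3 member probe sets, of Tekt4, Odf2 and Spag16, against 5.11% of all tested probe sets. In 61 member probe sets that share is near the background. The difference of every gene was small. Each gene was represented by 1 chosen probe set, its tested one with the highest mean. With these, 25 of 35 genes differed by less than 0.1 log2 and 34 by less than 0.2. For 34 of 35 genes the 95% confidence interval of the difference lay within 0.5 log2 on either side of 0. In simulated data with 3 against 3 arrays, 2% of changes of 0.25 log2 were recovered, 41.2% of changes of 0.5 and 93.2% of changes of 1. Differences of the size seen here were therefore not detectable gene by gene. In whole testis, fewer cells of a type and less RNA per cell cannot be told apart.

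Most differences had the same sign. Of the 35 genes tested 33 were higher in KO and 2 lower, Spag16 and Tekt5, with a median difference of 0.062 log2, while 56.4% of all tested probe sets were higher, with a median of 0.013. After quantile normalization 27 of 35 were higher, with a median of 0.022, while 49.6% of all tested probe sets were higher, with a median of -0.001. With WT replicates 1 and 2 both left out and WT replicate 3 alone as the control, 24 of 35 were higher and the median was 0.018, while 48.7% of all were higher, with a median of -0.003. Counted singly, 51 of the 61 tested member probe sets were higher in KO. Of the 36 genes, only Tuba3b, a testis alpha tubulin, had no tested probe set. It read 5.58, 5.52 and 5.57 log2 in KO, against 5.86, 5.27 and 5.23 in WT, under the lowest mean tested of 6.02.

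**Figure D1:**
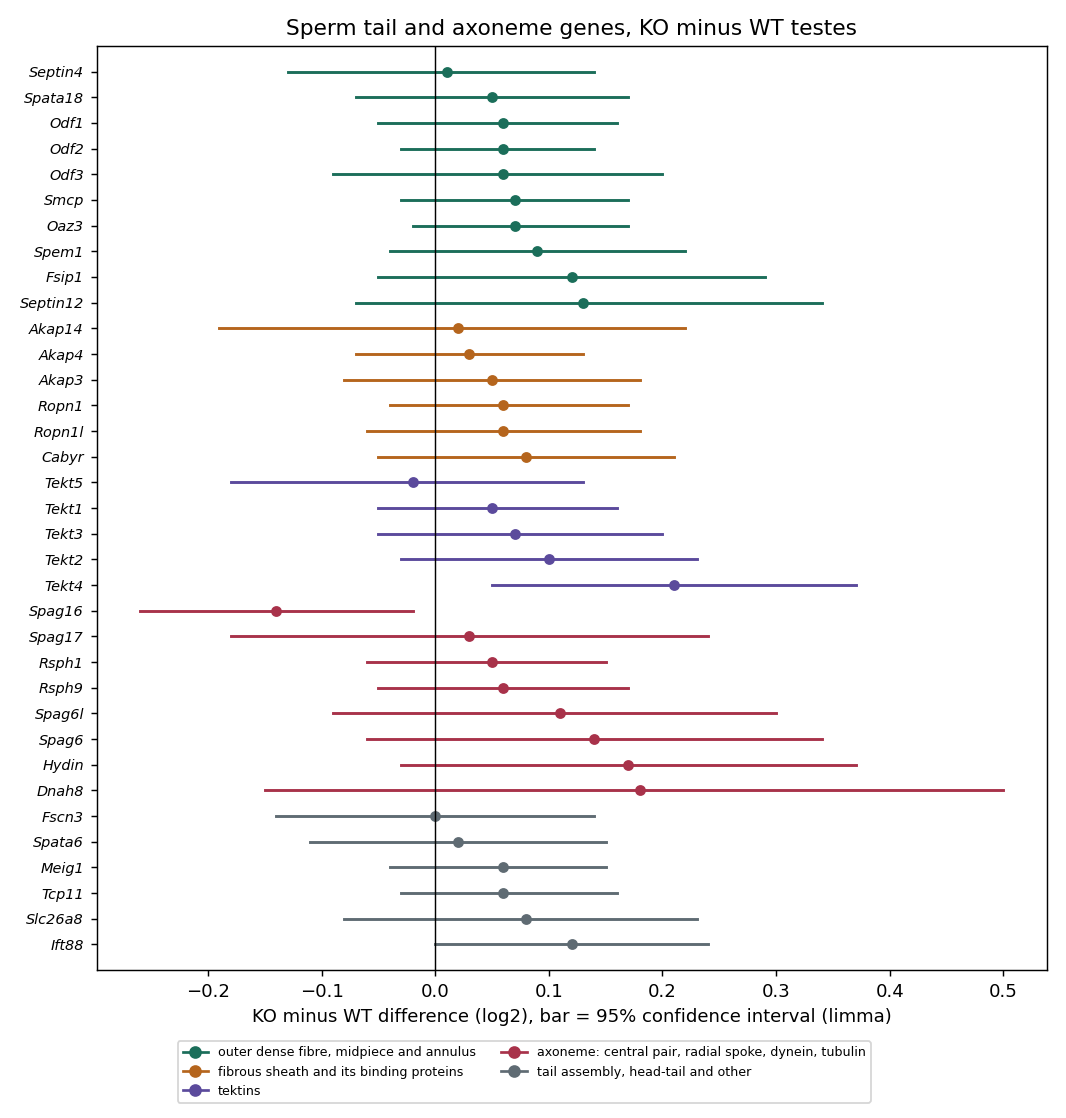
KO minus WT difference in log2 for the 35 tested genes, 1 probe set per gene, coloured by role, with bars for the 95% confidence interval from limma. Points lie to the right of 0 for 33 genes, and the intervals of Tekt4 (0.05 to 0.37) and Spag16 (-0.26 to -0.02) leave out 0 before any adjustment.

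A sequence feature that the list did not use was looked for near the start of each gene. RFX transcription factors, which are known to drive ciliary genes, bind the X-box, an inverted repeat whose arm can be written GTTGCC. In RefSeq windows from 250 bases before to 50 after a transcription start (GRCm38.p6), 31 of the 36 genes had at least 1 window. On either strand, GTTGCC was found for 14 of these 31 genes (45.2%), against 14.1% of all 27025 genes with a window. Most members with a window thus lacked it, and the shares are given with no test. Counted by window it was in 18 of 47 member windows (38.3%), and in 12.5% of all 32851. Windows of 1 gene overlap, so they are not independent. Spag6l alone held the palindrome of the cyclic AMP response element, TGACGTCA, the site of the spermatid activator CREM, and 2.03% of all genes had it. Its 6-letter core TGACGT, which lies within that palindrome, was found for 4 of the 31 genes (12.9%) and for 8.37% of all genes. The core promoter motif TATAAA was found for 0 of 31 genes between 50 and 10 bases before the start on the coding strand, and for 2.89% of all genes. A match is a description of the letters and not a binding site. Tekt4 and Ift88 had a match in their window but none wholly before the start, and are not shown. Members with a match that the naming rule under the processing did not pick, such as Odf3 and Spag6, are not shown either. The stretches below are of the members that this rule picked and that carry the arm before their start. Each is 60 bases, 5′ to 3′ on the gene's strand, with GTTGCC or its reverse complement in capitals.
Spag16: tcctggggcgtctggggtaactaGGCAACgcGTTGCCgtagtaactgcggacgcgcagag
Hydin: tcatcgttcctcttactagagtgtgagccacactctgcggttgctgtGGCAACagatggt
Tekt2: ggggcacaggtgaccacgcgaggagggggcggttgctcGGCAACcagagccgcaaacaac
Tcp11: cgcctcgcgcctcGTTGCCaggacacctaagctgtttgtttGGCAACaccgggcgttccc
Septin4: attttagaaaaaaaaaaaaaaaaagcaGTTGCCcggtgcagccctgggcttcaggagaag
Fscn3: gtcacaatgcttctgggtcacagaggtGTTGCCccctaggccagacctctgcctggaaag
They lie at chr1:69826836-69826895 (plus strand) for Spag16, chr8:110266917-110266976 (plus) for Hydin, chr4:126325689-126325748 (minus) for Tekt2, chr17:28080745-28080804 (minus) for Tcp11, chr11:87578274-87578333 (plus) for Septin4 and chr6:28427833-28427892 (plus) for Fscn3. Spag16 and Tcp11 held 2 arms each in the stretch shown. Members with and without the arm had overlapping ranges of difference, and a link between arm and difference was not tested. The 14 tested genes with it ranged from -0.14 to 0.21 log2 (median 0.07), and the 16 tested genes with a window and no match from -0.02 to 0.18 (median 0.06).

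Among the genes of the outer dense fibres, midpiece and annulus, 10 of 10 tested were higher in KO and 0 were called, with a median of 0.064 and differences from 0.01 to 0.13 log2. Odf2, a scaffold protein of the outer dense fibres and of centrioles, had 5 probe sets, all higher in KO by 0.04 to 0.15. The widest of these differences was at 1454735_at, which read 10.88, 10.91 and 10.96 log2 in KO, against 10.73, 10.78 and 10.80 in WT. All 3 KO values lay above all 3 WT values there (difference 0.15 ± 0.05 SE, 1.11-fold, 95% interval 1.02 to 1.21, limma adjusted p = 0.89). At the chosen Odf2 probe set, 1426040_a_at, KO arrays read 13.96, 13.97 and 13.96, against 13.90, 13.90 and 13.92 in WT, again without overlap and with a difference of 0.06.

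Odf1, the main cysteine-rich protein of the outer dense fibres, was higher in KO by 0.06, 0.09 and 0.07 log2 at its 3 probe sets. Its chosen probe set read 14.27, 14.23 and 14.24 in KO, against 14.22, 14.12 and 14.23 in WT, and WT replicate 2 was the low array. Odf3, another outer dense fibre gene, read 12.35, 12.37 and 12.29 in KO, against 12.25, 12.18 and 12.25 in WT at 1 of its 2 probe sets, without overlap (0.11 ± 0.05 SE, limma adjusted p = 0.974). At the chosen one the groups overlapped and the difference was 0.06. Smcp, a cysteine-rich protein of the mitochondrial capsule, read 14.51, 14.51 and 14.46 in KO, against 14.38, 14.42 and 14.48 in WT. Values near 14 are close to the top of the scale, where a change may be compressed.

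Oaz3 encodes the ornithine decarboxylase antizyme of spermatids. At its chosen probe set, 1437011_x_at, it read 14.25, 14.23 and 14.23 in KO, against 14.12, 14.15 and 14.21 in WT, with no overlap (0.07 ± 0.04 SE, limma adjusted p = 0.993). The suffix _x_at marks probe sets whose probes can bind other transcripts. Its 4 other tested probe sets did not share a sign, at 0.05 and 0.04 for 1437010_a_at and 1453115_at, and at -0.05 and -0.17 for 1432571_at and 1454279_at. Of these 4, 3 read at most 7.01 log2 on every array.

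Of the annulus septins, Septin12 was higher in KO at both probe sets, by 0.13 and 0.18. At its chosen probe set it read 12.64, 12.70 and 12.79 in KO, against 12.38, 12.72 and 12.63 in WT, and the low WT value was replicate 1. Septin4 differed least in this group, at 0.01 ± 0.06 SE (95% interval -0.13 to 0.14 log2), with 11.04, 11.08 and 11.05 in KO, against 11.03, 10.99 and 11.14 in WT. Fsip1, counted in this group although its product binds the fibrous sheath protein AKAP4, read 10.75, 10.77 and 10.61 in KO, against 10.65, 10.47 and 10.65 in WT (0.12 ± 0.07 SE). Its other probe set differed by 0.02 ± 0.08 SE. Spem1, needed for the spermatid to shed its cytoplasm, differed by 0.09, and Spata18, a protein of mitochondrial quality control, by 0.05.

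The fibrous sheath genes gave differences from 0.02 to 0.08 log2, with 6 of 6 higher in KO, a median of 0.056 and 0 called. Akap4, the most abundant protein of the sheath, is X-linked. Its chosen probe set read 14.09, 14.03 and 14.04 in KO, against 13.98, 14.00 and 14.08 in WT, which overlap (0.03 ± 0.04 SE, 95% interval -0.07 to 0.13). Its 2 other probe sets stood at 0.02 and 0.00. Akap14, an anchoring protein of cilia and also X-linked, differed by 0.02, with 9.39, 9.26 and 9.16 in KO, against 9.24, 9.14 and 9.38 in WT. Over all 650 tested X-linked probe sets 35.5% were higher in KO, with a median of -0.034 log2. Akap3, the partner of Akap4 in the sheath, differed by 0.05 at both probe sets.

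Cabyr, a calcium-binding protein of the sheath, read 13.13, 13.12 and 13.09 in KO, against 12.99, 12.98 and 13.14 in WT at its chosen probe set. The KO values lay above WT replicates 1 and 2 and below WT replicate 3. Its other probe sets gave 0.11 and -0.08, so that they did not share a sign. Ropn1, an AKAP-binding protein, read 13.33, 13.34 and 13.34 in KO, against 13.21, 13.28 and 13.34 in WT. Ropn1 and its relative Ropn1l both differed by 0.06.

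The tektins are filament proteins that run along the doublet microtubules. Of 5 tested 4 were higher in KO and 1 lower, with a median of 0.072, and 0 were called. Tekt4 had the largest difference of all member genes. Its probe set 1453121_at read 12.45, 12.46 and 12.30 log2 in KO, against 12.25, 12.09 and 12.25 in WT. All KO values lay above all WT values, with KO replicate 3 close to the upper WT pair. The difference was 0.21 ± 0.07 SE or 1.15-fold (95% interval 1.03 to 1.29, limma adjusted p = 0.863). Of 13 other fits, 8 change the values or the arrays and so can move a difference, and over these it ran from 0.15 to 0.26. Over all 13 the adjusted p ran from 0.404 to 1.

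Tekt2 read 12.89, 12.83 and 12.74 in KO, against 12.65, 12.72 and 12.77 in WT, a difference of 0.10 ± 0.06 SE with overlap. Tekt1 and Tekt3 were higher in KO by 0.05 and 0.07, Tekt1 without overlap between groups. Tekt5 had the smallest difference and was lower in KO, at -0.02 ± 0.07 SE, with 11.03, 10.94 and 11.09 in KO, against 10.97, 11.02 and 11.14 in WT.

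**Figure D2:**
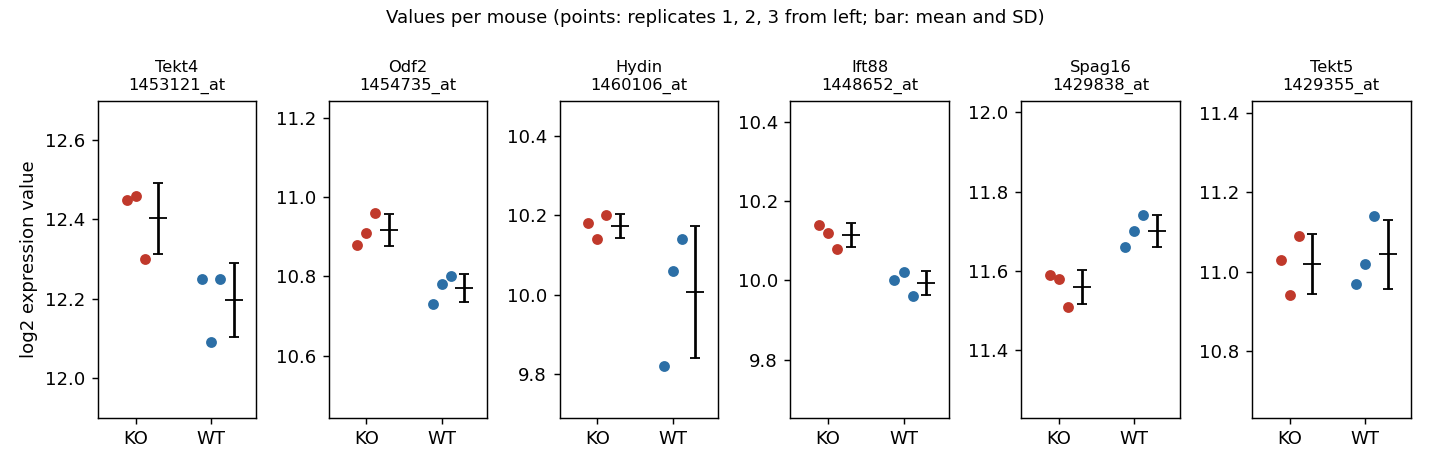
Log2 expression values of 6 member probe sets in each mouse, with KO left of WT, points for replicates 1 to 3 and bars for mean and SD (n = 3 each). Each panel spans the same height of 0.8 log2. Tekt4, Odf2, Hydin and Ift88 lie higher in KO without overlap, Spag16 lower without overlap, and Tekt5 overlaps.

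The axoneme genes held the member with the largest difference in the other direction. Spag16 encodes a protein of the central pair, and its probe set 1429838_at read 11.59, 11.58 and 11.51 log2 in KO, against 11.66, 11.70 and 11.74 in WT. Every KO array was lower than every WT array, which 3.84% of all tested probe sets also showed. The difference was -0.14 ± 0.05 SE or 0.909-fold (95% interval 0.838 to 0.986, limma adjusted p = 0.918). It ran from -0.18 to -0.11 over the 8 fits that can move it, with adjusted p from 0.404 to 1 over all 13. The other tested Spag16 probe set, 1431732_at, stood at -0.02, and the 2 below the level filter at 0.16 and 0.18, so the probe sets of this gene did not share a sign.

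The other central pair genes were higher in KO. Hydin read 10.18, 10.14 and 10.20 at 1460106_at in KO, against 9.82, 10.06 and 10.14 in WT, with no overlap before rounding (0.17 ± 0.09 SE, limma adjusted p = 0.993). WT replicate 1 was the low array, and its other tested probe set, 1431589_at, stood at -0.03. Spag6 and its near-identical relative Spag6l, whose probes may read both, differed by 0.14 and 0.11. Spag6 read 11.65, 11.57 and 11.55 in KO, against 11.26, 11.55 and 11.55 in WT, so that WT replicate 1 alone was clearly lower. Spag6l likewise had its low value in WT replicate 1, with 12.13, 12.11 and 12.20 in KO, against 11.85, 12.19 and 12.07 in WT. Spag17 had the smallest difference of this group, 0.03 ± 0.09 SE, with 8.62, 8.72 and 8.73 in KO, against 8.68, 8.49 and 8.80 in WT.

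The radial spoke genes Rsph1 and Rsph9 differed by 0.05 and 0.06. Rsph9 had no overlap, with 11.68, 11.69 and 11.69 in KO, against 11.60, 11.62 and 11.66 in WT. Dnah8, a dynein heavy chain of sperm, had the widest interval, from -0.15 to 0.50 log2 around 0.18. It read 13.06, 13.61 and 13.15 in KO, against 12.93, 13.22 and 13.14 in WT, and KO replicate 2 alone was high. Over the 8 axoneme genes tested, 7 were higher and 1 was lower in KO, with a median of 0.084 and 0 called.

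The genes of tail assembly, with those that were put in no other group, were all higher in KO, 6 of 6, with a median of 0.061 and 0 called. Ift88, a carrier protein of intraflagellar transport needed to build the axoneme, read 10.14, 10.12 and 10.08 in KO, against 10.00, 10.02 and 9.96 in WT. The groups did not overlap and each was tight (0.12 ± 0.05 SE, 1.09-fold, limma adjusted p = 0.981). Tcp11, linked to sperm motility, read 14.09, 14.07 and 14.04 in KO, against 13.99, 13.97 and 14.05 in WT. Fscn3, a testis fascin that bundles actin, had the smallest difference of all members, 0.00 ± 0.06 SE, with a 95% interval from -0.14 to 0.14 log2. Meig1 and Spata6, which act at the spermatid manchette and at the connecting piece, differed by 0.06 and 0.02. Slc26a8, counted here although its product is an anion transporter of the annulus, stood at 0.08 and -0.07 at its 2 probe sets. The chosen one read 11.59, 11.57 and 11.58 in KO, against 11.36, 11.58 and 11.56 in WT, so that WT replicate 1 alone lay below the rest.

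Where genes had more than 1 tested probe set, the size of the differences was often close to the disagreement between probe sets. Of 16 such genes 10 had all tested probe sets on the same side of 0 and 6 did not. The 6 were Akap4, Cabyr, Hydin, Oaz3, Septin4 and Slc26a8.

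Over all tested probe sets the share higher in KO climbed with the signal level, from 54.7% at 9 to 10 log2 to 97.1% at 14 to 15. The sign of the member genes did not follow the level in this way. Spag16 and Tekt5, the lower ones, lay from 11 to 12 log2, and all member genes below that were higher. Their shared sign went along with low values in WT replicate 1 and, for fewer genes, in WT replicate 2. The part of each in the differences was not tested. WT replicate 1 gave the lowest value of the 6 arrays for 21 of 35 genes and WT replicate 2 for 10, while the KO arrays gave the lowest value for 2. Over all tested probe sets with a mean of at least 12 log2, WT replicate 1 was lowest in 71.1%, and in 68.2% of the 22 member genes there. WT replicate 2 was lowest in 15.7% of those probe sets and in 27.3% of those member genes. Its median deviation there was 0.014 log2 over all probe sets and -0.032 over the member genes. The median deviation of the member genes from their 6-array mean was 0.034, 0.035 and 0.028 log2 in KO replicates 1, 2 and 3, against -0.066, -0.030 and 0.019 in WT replicates 1, 2 and 3. WT replicate 3 thus lay nearer to the KO arrays than to the other WT arrays.

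**Figure D3:**
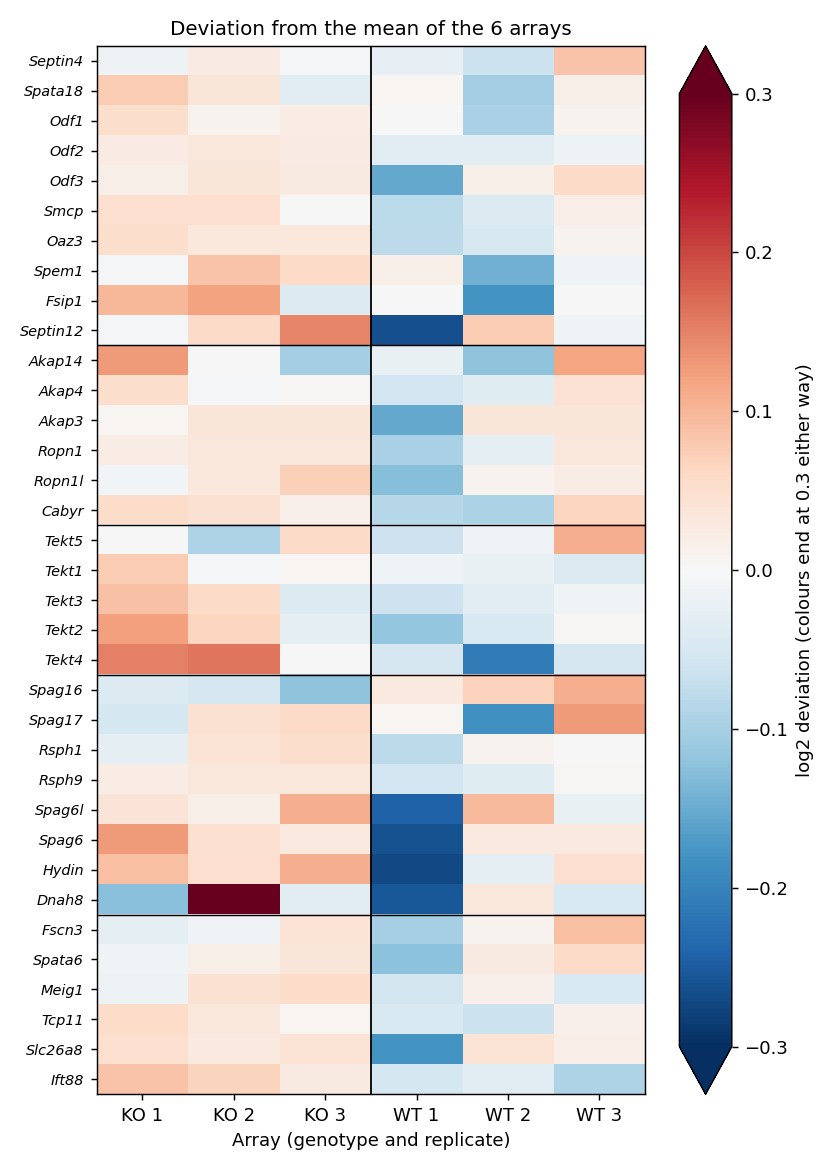
Deviation of each member gene from its mean over the 6 arrays in log2, with KO columns left of WT columns and genes grouped by role (lines). Blue cells, below the mean, gather in WT replicate 1 and, for fewer genes, in WT replicate 2. Dnah8 is dark red in KO replicate 2.

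Probe sets of similar mean log2 were also higher in KO on balance, so that the members exceeded them by less. Bands of 1 log2 were used, and the median difference over all tested probe sets was 0.008 in the band from 6 to 7, 0.036 from 12 to 13 and 0.047 from 14 to 15. Of the 35 member genes 29 lay above the median of their own band, by a median of 0.020 log2. In the band from 14 to 15 the 8 member genes had a median of 0.059, against 0.047 for all 69 probe sets there. In the band from 13 to 14 the 7 had 0.058, against 0.045 for all 427. In the band from 12 to 13 the 7 member genes had 0.102, against 0.036 for all 986. In the band from 11 to 12 the 8 had 0.033, against 0.026 for 1732. The widest gap was from 10 to 11, where the 3 member genes had 0.121, against 0.019 for 2594. Of the 22 member genes at 12 log2 and above 22 were higher in KO, while 80.6% of all 1482 probe sets there were. Without WT replicate 1 that share of all probe sets was 48.6% with a median of -0.001, and 19 of the 22 member genes were higher with a median of 0.050. Without WT replicates 1 and 2 it was 45.1%, and 17 of the 22 were higher with a median of 0.019.

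**Figure D4:**
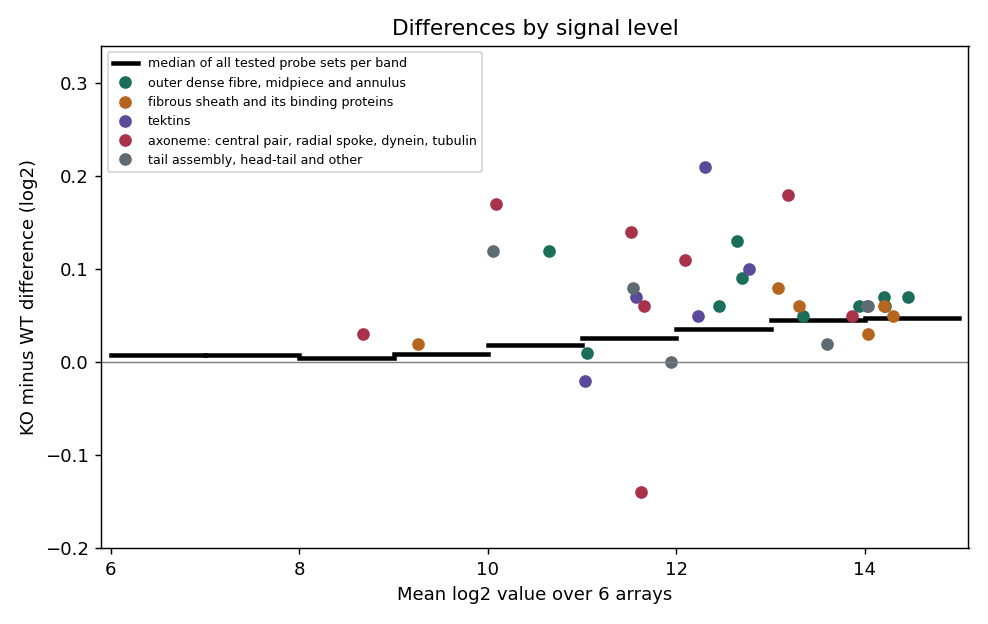
KO minus WT difference in log2 against the mean log2 value over 6 arrays, with points for the 35 member genes coloured by role and black lines for the median of all tested probe sets in each band of 1 log2. The black lines climb with level to 0.047, and 29 of 35 points lie above the line of their band.

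Some members had no overlap between groups. In 7 of the 35 genes all KO arrays lay above all WT arrays, namely Odf2, Oaz3, Tekt1, Tekt4, Hydin, Rsph9 and Ift88, where 7.12% of all tested probe sets did so. In 1 gene, Spag16, all lay below. At 12 log2 and above, 4 of 22 member genes and 11.8% of all probe sets had all KO arrays above. The spread between replicates was near that of other probe sets of similar level, with no common direction. The median of the pooled SD within groups was 0.067 log2 over the 35 genes. At 12 log2 and above it was 0.064 for members and 0.072 for all tested probe sets. By band, members had the larger median SD in 4 of the 7 bands that held any, such as 0.080 for members and 0.077 for all from 12 to 13 log2, and 0.094 and 0.090 from 10 to 11. Members had the smaller one in the other 3, such as 0.064 for members and 0.084 for all from 11 to 12. The bands from 8 to 9 and from 9 to 10, both with the larger SD in members, held 1 member gene each, and that from 10 to 11 held 3. Those with the smaller SD in members held 7 or 8.

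Other genes of the flagellum differed by similarly small amounts. Their counts stand beside 56.4% higher among all tested probe sets and 67.4% among those at 10 log2 and above. Among 18 further dynein arm genes 13 were higher in KO (72.2%), with a median of 0.058. Among 25 central pair, radial spoke and nexin genes 21 were higher (84.0%, median 0.062), and among 17 further sheath and head-tail genes 16 were (94.1%, median 0.056). Dynein preassembly and transcription factor genes were higher in 9 of 13 cases (69.2%, median 0.056) and intraflagellar transport genes in 11 of 19 (57.9%, median 0.040). The share of the intraflagellar transport list was thus near that of all tested probe sets. Those of the dynein arm and preassembly lists were nearer to that of probe sets at 10 log2 and above. The dynein arm list, however, had a mean of 9.64 to 9.87 log2 in the WT arrays. Of all tested probe sets from 9 to 10 log2, 54.7% were higher, with a median of 0.009. In these lists 0 genes were called by limma, and 7 of the 92 had an unadjusted p under 0.05, against 5.11% of all tested probe sets.

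Genes with the smallest p in these lists included Rfx1, a factor of the RFX family that binds the X-box, at 9.68 ± 0.05 in KO and 9.46 ± 0.07 in WT (SD, n = 3 each, limma adjusted p = 0.863). Foxj1, a master activator of motile cilia, was at 9.80 ± 0.15 in KO and 9.58 ± 0.09 in WT, with overlap (limma adjusted p = 0.961). Gas8, of the nexin-dynein regulatory complex, differed by 0.17 ± 0.06 SE and Ift57 by 0.19 ± 0.06 SE. Odf4 and the dynein light intermediate chain gene Dnali1 differed by 0.13 and 0.12. Dydc1, Ift172 and Ccin, chosen by the same rule, differed by 0.19, 0.11 and 0.11. All KO arrays lay above all WT arrays for Rfx1, Gas8, Dydc1, Ift57, Odf4 and Dnali1, and for 7.12% of all tested probe sets. Since these genes were chosen for a small p, their lack of overlap is no separate result. Dnah17, a dynein heavy chain gene and the only 1 of these 10 that was lower in KO, differed by -0.13 ± 0.09 SE, with overlap.

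Markers of testis and duct cell types, spermatids included, were read beside these genes. Among all tested probe sets 56.4% were higher in KO, and at 12 log2 and above 80.6% were, with a median of 0.040. Round spermatid markers were higher in KO in 12 of 13 cases (median 0.064), and their mean was 12.20 to 12.27 log2 in KO, against 12.11 to 12.22 in WT. The genes of nuclear compaction in elongating spermatids, which lie near the top of the scale, were higher in 5 of 6 cases (median 0.008). Their mean was 14.38 to 14.44 in KO, against 14.35 to 14.45 in WT. From 14 to 15 log2, 97.1% of all tested probe sets were higher, with a median of 0.047. Spermatocyte (median 0.000, 11 genes) and spermatogonial markers (median 0.003, 9 genes) had medians near 0. Of 15 Sertoli cell markers 12 were lower in KO (median -0.071), with a list mean of 9.99 to 10.04 in KO, against 10.06 to 10.09 in WT. Leydig cell markers were lower in 3 of 6 cases. Of 12 listed epididymis genes 4 were tested, and 3 of them were lower in KO (median -0.173), with a list mean of 6.42 to 7.05 in KO, against 6.69 to 7.06 in WT. Among them Rnase10, a ribonuclease-family gene of the epididymis, was at 7.34 ± 0.49 in KO and 8.05 ± 0.27 in WT (SD, n = 3 each). Its difference of -0.70 ± 0.24 SE exceeded that of any tail gene, with overlap (limma adjusted p = 0.869). Spink8, the 1 that was higher in KO, differed by 0.48 ± 0.86 SE, also more than any tail gene. It varied widely between mice, at 6.91 ± 1.65 in KO and 6.42 ± 1.23 in WT (SD). Of 10 efferent duct genes 4 were tested, at 7.58 to 7.65 in KO, against 7.48 to 7.73 in WT. In these marker lists 0 genes were called by limma, with 5 of 68 at an unadjusted p under 0.05, against 5.11% of all tested probe sets. The part of cell composition in the differences of the tail genes was not tested.

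**Figure D5:**
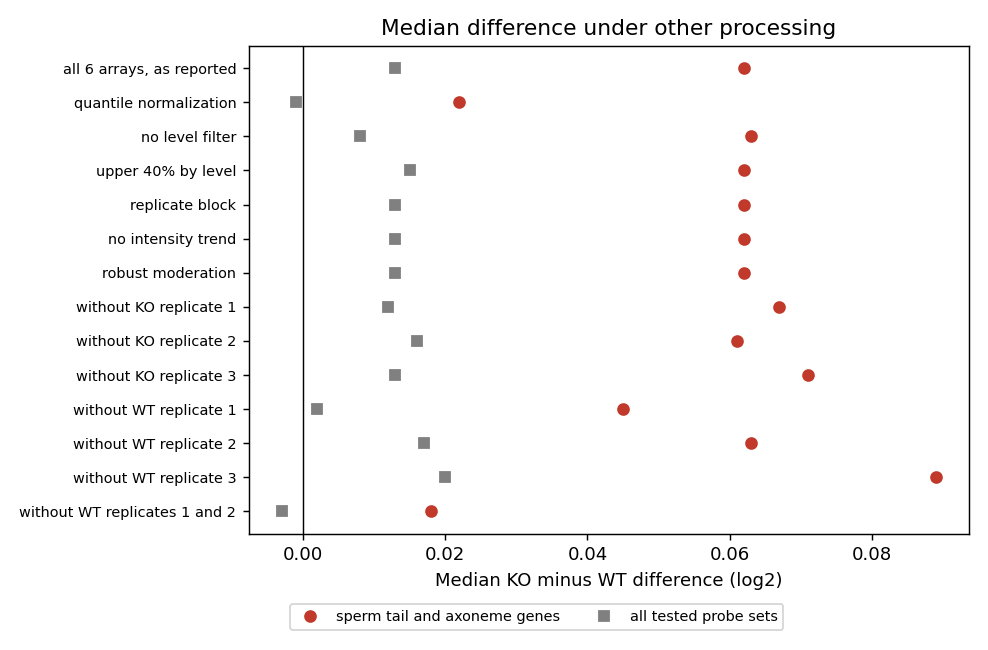
Median KO minus WT difference in log2 over the member genes (red circles) and over all tested probe sets (grey squares), for the fit with 6 arrays and 13 other fits. The member median lies between 0.018 and 0.089 and stays above that of all probe sets, and it is lowest without WT replicates 1 and 2 and after quantile normalization.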

How the data were processed

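The values used are those the authors deposited, on a log2 scale and normalized, for 45101 probe sets on 6 arrays (3 KO and 3 WT mice, 1 array each). Biotin-labelled cRNA was made in 1 amplification cycle, per the labels' protocols, and the submitters' processing notes name GCOS 1.4. How background, probe summary and normalization were handled is not stated. That the scale is log2 follows from the range, 2.61 to 15.00, with array medians of 6.62 to 6.65. Such a scale says little of transcript amounts, so levels of different genes were not read as amounts. Mean log2 served to filter probe sets, to choose 1 probe set per gene and to form bands and sets of similar signal. Signal over background is unknown, and the number of arrays limits the precision (median SE 0.08).

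After leaving out 64 control probe sets, the upper 60% by mean log2 (27022) were tested for KO against WT with limma 3.58.1 in R 4.3.3 (lmFit, eBayes with an intensity trend, two-sided, Benjamini-Hochberg, threshold 0.05). Gene names came from the platform annotation, updated through gene ids with RefSeq (GRCm38.p6). The pipeline was tested on simulated data over 27022 probe sets, where 5.15% of calls were false. Simulated runs held more changed probe sets than were called here, so recovery may be lower. Members and lists were chosen with earlier results of these data known. Members were named by an unadjusted p under 0.05, by the smallest p (2) and the smallest difference in each role group, and by probe sets that differ in sign by over 0.2. From other lists up to 2 genes with the smallest p were eligible, and Spink8 was added as the epididymis gene that was higher in KO. Other member values were picked for the text after they were seen. Same-numbered KO and WT arrays did not deviate together (r = 0.223, -0.024 and 0.096), so the numbers were not taken as pairs. Other fits changed the normalization, level filter, variance moderation, replicate block or arrays used. Protein sequences were not used here. Figures were drawn with matplotlib 3.10.9.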

Additional observations from a re-analysis of the deposited data

How the results depend on the processing

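Under 13 other fits 0 member probe sets were called. Of these, 5 (level filter, replicate block, variance moderation) leave every difference as it was and say nothing of its sign. Under the other 8 the median over the member genes was above 0. It was 0.022 after quantile normalization and 0.018 without WT replicates 1 and 2, and from 0.045 to 0.089 when single arrays were left out. The count of called probe sets over the whole table was 11, and 7 among the upper 40% by level, where fewer were tested. It was 2 without WT replicates 1 and 2, where the spread within groups comes from the KO arrays alone and the lone WT array is assumed to vary like them. It was 2 to 12 when single arrays were left out (4 without WT replicate 3, 6 without KO replicate 1, 2 without KO replicate 3). With the replicate number as a block it was 9, with a member median of 0.062.

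Small differences changed sign, with causes not tested. Of 21 named member probe sets 11 kept their sign under every fit and 10 did not. Without WT replicates 1 and 2, Akap14 stood at -0.11, Cabyr at -0.03, Fscn3 at -0.09, Septin4 at -0.08, Spag17 at -0.11, Oaz3 at -0.01 (1437010_a_at) and -0.02 (1453115_at), and Hydin 1431589_at at 0.0019. After quantile normalization Fscn3 was at -0.03 and Septin4 at -0.01. With single arrays left out, the ranges that crossed 0 were -0.04 to 0.08 for Akap14, -0.05 to 0.05 for Fscn3, -0.03 to 0.05 for Septin4, -0.05 to 0.11 for Spag17, -0.06 to 0.03 for Tekt5, -0.09 to 0.03 for Hydin 1431589_at and -0.12 to 0.02 for Oaz3 1432571_at. Differences of 0.1 log2 are smaller than the changes of 0.25 log2 of which 2% were recovered in simulated data.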
